A study of Rattus norvegicus with 12 samples.

Results

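HMGB1 and the other danger signals, their receptors and the adaptor and inhibitor of the TLR to NF-kB route were followed in rat hippocampal neuron cultures after oxygen-glucose deprivation (OGD). The group was fixed as 10 rat genes: Hmgb1, Hmgb2, S100a8, S100a9, Tlr2, Tlr4, Ager, Myd88, Nfkbia and Nfkb1. Every probe whose transcript accession on the array belongs to 1 of these genes was taken, which gave 12 probes for 9 of the 10 genes, out of 30367 probes and 15154 named genes on the array. Hmgb1 has 3 probes, Hmgb2 has 2 and the other genes have 1 each, while Nfkb1 was not matched to a probe and is not analysed here.

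The data are 12 single-colour Agilent arrays of primary hippocampal cultures from Wistar rat embryos of embryonic day 18, kept for 14 to 15 days. Cultures in the OGD groups spent 2 h in an anaerobic chamber in a buffer with sucrose in place of glucose, those in the Ctrl groups spent the same time in air and CO2 in a buffer with 25 mM glucose, and all then went back to conditioned medium. RNA was taken after 7 h or 24 h of recovery from 3 independent cultures, which gave the 4 groups Ctrl 7 h, OGD 7 h, Ctrl 24 h and OGD 24 h with 3 arrays each, named R1 to R3. The p-values therefore measure the spread between 3 cultures per group. These are dissociated embryonic cells without blood supply or circulating leukocytes, and the methods state that they hold some glia.

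HMGB1 and HMGB2 are chromatin proteins that bend DNA in the nucleus. HMGB1 that leaves dying or stressed cells acts as a danger signal, and so does the S100A8/S100A9 heterodimer, which is best known from neutrophils and monocytes. Both are sensed by the Toll-like receptor TLR4 and by RAGE, the product of Ager, and HMGB1 also by TLR2. MYD88 carries the signal from Toll-like receptors to the kinases that release NF-kB from its inhibitor IkB-alpha, the product of Nfkbia, which is itself a target gene of NF-kB. In the ischemic brain this route is known for the inflammation that follows the injury.

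Signals are given as multiples of the median probe of the same array, and folds are ratios of geometric means of 3 arrays, also given as log2 fold changes with standard errors (SE). A gene is said to have risen or fallen where limma's unadjusted p was under 0.05 and the fold at least 2, the thresholds of the study's methods. After Benjamini-Hochberg adjustment over all probes no probe passed 0.05 at either time, the lowest adjusted p values in limma being 0.117 at 7 h and 0.209 at 24 h. The unadjusted p alone was under 0.05 for 3590 probes in the 7 h comparison and for 4160 in the 24 h comparison. Of all probes, 2.08% passed both thresholds as higher in OGD and 1.66% as lower in OGD after 7 h, and after 24 h these shares were 3.71% and 1.96%.

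Array quality bore on several values below. The median intensity was 447 to 660 units on Ctrl 7 h arrays, 234 to 426 on OGD 7 h, 402 to 477 on Ctrl 24 h and 131 to 546 on OGD 24 h, with OGD 24 h R1 the dimmest of all. Each slide held the Ctrl and OGD culture of 1 time and replicate number. At 7 h, OGD R1 and R2 were scanned in an earlier session than the other 4 arrays, and at 24 h OGD R1 was scanned apart from the other 5. Scaling to the spike-in probe in place of the array median lowered every log2 fold change below by 0.78 at 7 h and by 1.02 at 24 h, so each difference is relative to the median probe. The spike-in probe was itself unsteady. Its log2 signal ran from 5.65 (Ctrl R1) to 6.75 (OGD R1) at 7 h. At 24 h it ran from 9.75 (OGD R3) to 12.56 (OGD R1). A call lost with this scaling therefore also carries the spread of that probe. The neuron markers fixed for the label were well above background on all 12 arrays for 12 of 12 genes, and those of astrocytes for 9 of 9 with a probe.

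The sequences shown here are those of the promoters of Tlr2 and Nfkbia, the receptor that passed at 7 h and the inhibitor of the 10 genes, whose upstream windows both hold the NF-kB consensus of 10 letters. The windows are 300 bases long in RefSeq on build GRCr8, 250 before and 50 after the start of the gene, and only the 250 upstream bases are printed, 5′ to 3′ on the strand of the gene. The Tlr2 stretch is chr2:171504558-171504807 on the minus strand and the Nfkbia stretch is chr6:78597073-78597322 on the minus strand, with the matches in capitals.
Tlr2: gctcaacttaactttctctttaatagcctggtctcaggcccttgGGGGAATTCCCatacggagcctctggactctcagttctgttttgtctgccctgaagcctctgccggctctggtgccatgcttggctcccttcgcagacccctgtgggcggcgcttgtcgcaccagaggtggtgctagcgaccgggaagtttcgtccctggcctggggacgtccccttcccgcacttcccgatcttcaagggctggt
Nfkbia: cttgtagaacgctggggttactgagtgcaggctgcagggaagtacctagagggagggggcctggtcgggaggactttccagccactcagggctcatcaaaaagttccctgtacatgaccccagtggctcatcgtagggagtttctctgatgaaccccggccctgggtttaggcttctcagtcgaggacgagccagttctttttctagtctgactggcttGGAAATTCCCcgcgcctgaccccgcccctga
In Tlr2 the run starts at −206 from the start of the gene and holds 3 overlapping matches over both strands, and in Nfkbia the only match starts at −31. Of the 10 genes, 9 had a window and 3 of these held a match, the last being Nfkb1, whose match lies just after the start. Of all 33469 rat promoter windows of this length, 1400 held the consensus, which is 4.18%. A match of letters is a description of the sequence and says nothing about binding in these cultures.

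Of the 9 genes with a probe, 1 rose at 7 h and 0 fell, where 2.08% and 1.66% of all probes did. That gene was Tlr2, which encodes a receptor for lipoproteins and danger signals. At 24 h 0 of 9 passed in limma in either direction, and 1, S100a9, with the methods' t-test. Without the fold threshold, limma's unadjusted p was under 0.05 for 5 of 9 genes at 7 h, namely Tlr2, Hmgb1, Nfkbia, Hmgb2 and Myd88, and for 3 of 9 at 24 h, namely Hmgb2, Nfkbia and Myd88. Of those 5 genes, 1 kept an unadjusted p under 0.05 and its direction with the normexp background correction, which models the background from the raw spot signals, and 0 with scaling to the spike-in probe, and of the 3 at 24 h 0 did with either. The median log2 fold change of the 9 genes was 0.58 at 7 h and 0.47 at 24 h, against −0.06 and 0.01 for all probes, and the values of Tlr4 and S100a9 near background entered it. The 3 OGD values lay outside the 3 Ctrl values for 6 of the 9 genes at 7 h, where 26.1% of all probes did so, and for 4 of 9 at 24 h, where 17.9% did.

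**Figure D1:**
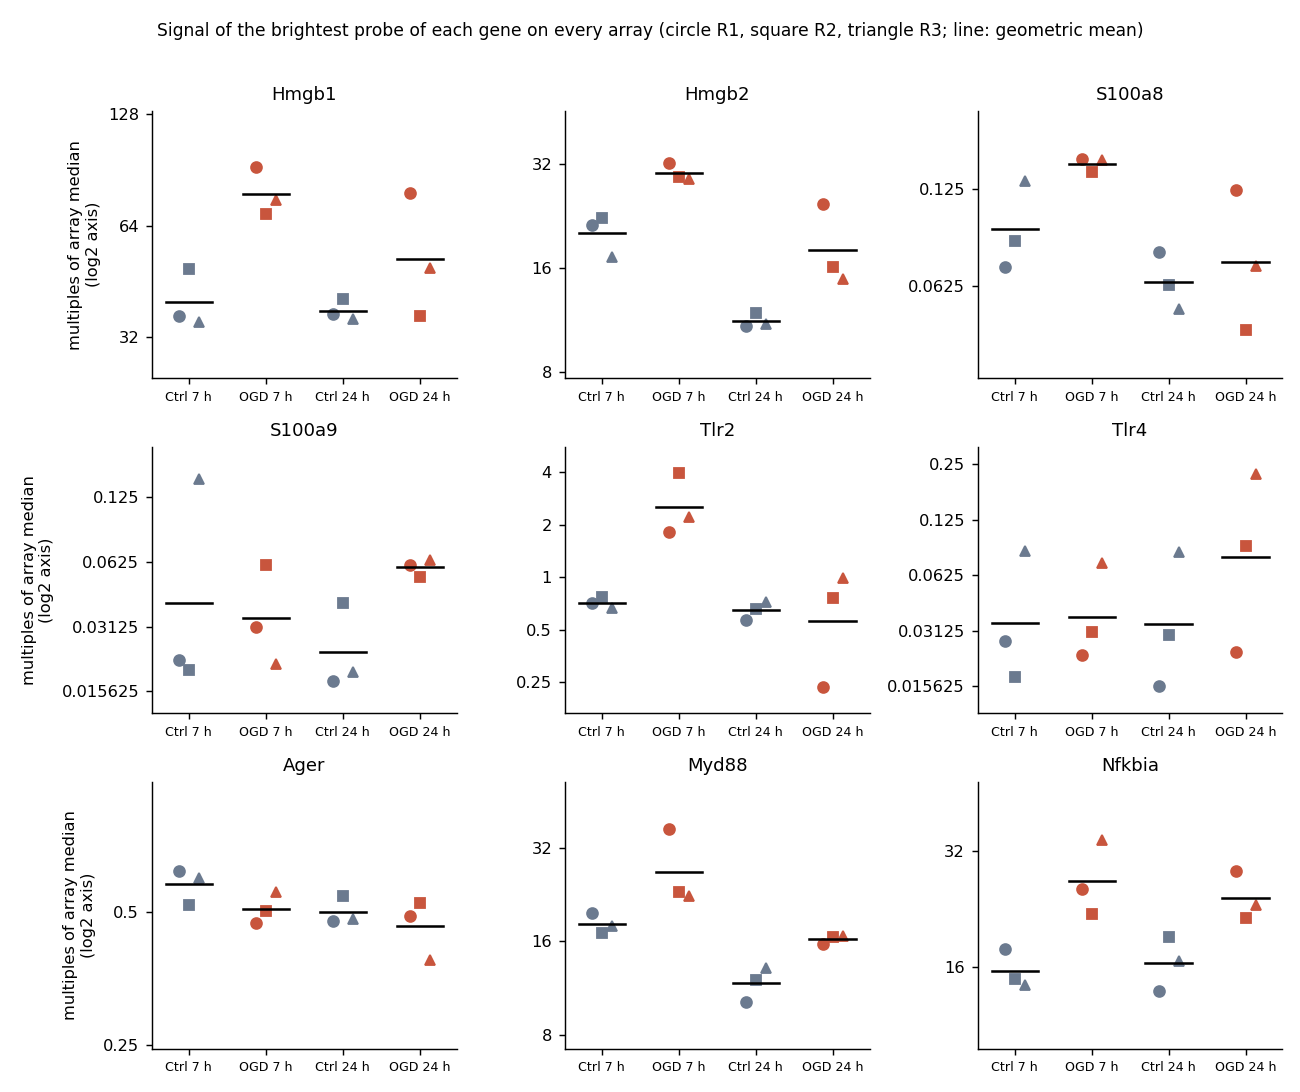
Signal of the brightest probe of each gene, as multiples of the array median on a log2 axis with its own range in each panel, for the 12 arrays (circle R1, square R2, triangle R3; line, geometric mean of 3 arrays). Tlr2 was 1.82 to 3.97 on the OGD 7 h arrays and 0.67 to 0.77 on the Ctrl 7 h arrays, while for Ager the 2 groups overlapped at both times.

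Among the danger signals, Hmgb1 read on its brightest probe, A_64_P299671, was 1.97-fold higher in OGD at 7 h, just under the fold threshold. Its signal was 36.6, 48.9 and 35.1 in Ctrl 7 h and 92.4, 69.1 and 75.1 in OGD 7 h. The lowest OGD culture was above the highest Ctrl culture. The log2 fold change was 0.98 ± 0.27 (SE, n = 3 and 3; limma adjusted p = 0.27), and on the 3 slides it was 1.34, 0.50 and 1.1. It crossed the fold threshold when arrays were centred on the 75th percentile, where the log2 fold change was 1.09, in the values processed by the authors (1.00), and when Ctrl 7 h R2 (1.13), OGD 7 h R2 (1.07) or OGD 7 h R3 (1.01) was left out. It was 0.46 for the mean of the 3 probes of the gene, 0.37 with the normexp background correction (limma adjusted p = 0.441) and 0.20 with scaling to the spike-in probe (limma adjusted p = 0.916). The study itself listed Hmgb1 as up-regulated at 7 h on these arrays and chose it for quantitative PCR.

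At 24 h the same probe read 36.9, 40.5 and 35.8 in Ctrl and 78.7, 36.6 and 49.2 in OGD. OGD R1 stood far above the other arrays and OGD R2 lay within the range of the Ctrl arrays. The log2 fold change was 0.47 ± 0.27 (limma adjusted p = 0.453). It was 0.17 without OGD R1, 0.72 without OGD R2, 0.02 with the normexp background correction and −0.56 with scaling to the spike-in probe. The log2 fold change at 24 h minus that at 7 h was −0.51 ± 0.38, which did not pass (limma adjusted p = 1.00). On the bulk RNA of a culture, fewer cells of a type and less RNA per cell cannot be told apart.

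The probes of Hmgb1 disagreed. The second probe by signal, A_64_P072803, read 25.8, 24.1 and 17.3 in Ctrl 7 h and 37.7, 27.7 and 28.6 in OGD 7 h, a log2 fold change of 0.49 ± 0.22 (limma adjusted p = 0.425). The groups did not overlap, but the gap between Ctrl R1 and OGD R2 was small. The third probe, A_64_P031945, read 7.45, 6.67 and 5.98 in Ctrl 7 h and 6.11, 6.13 and 6.49 in OGD 7 h, a log2 fold change of −0.10 ± 0.25 (limma adjusted p = 0.886). On that probe the OGD values lay within the Ctrl range.

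At 24 h A_64_P072803 gave 0.42 ± 0.22 (limma adjusted p = 0.427) and A_64_P031945 gave −0.09 ± 0.25 (limma adjusted p = 0.923) on the log2 scale. Over the 12 arrays the brightest probe ran with A_64_P072803 (Pearson r = 0.85) and against A_64_P031945 (r = −0.56), a description over arrays that share 4 groups. Hmgb1 is a gene with many copies in the rat genome. The RefSeq annotation on GRCr8 names 23 such copies, 18 of them as pseudogenes and 5 as Hmgb1-like, and only 1 probe on the array is named for a copy, so how far each Hmgb1 probe also reads copies was not tested.

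**Figure D2:**
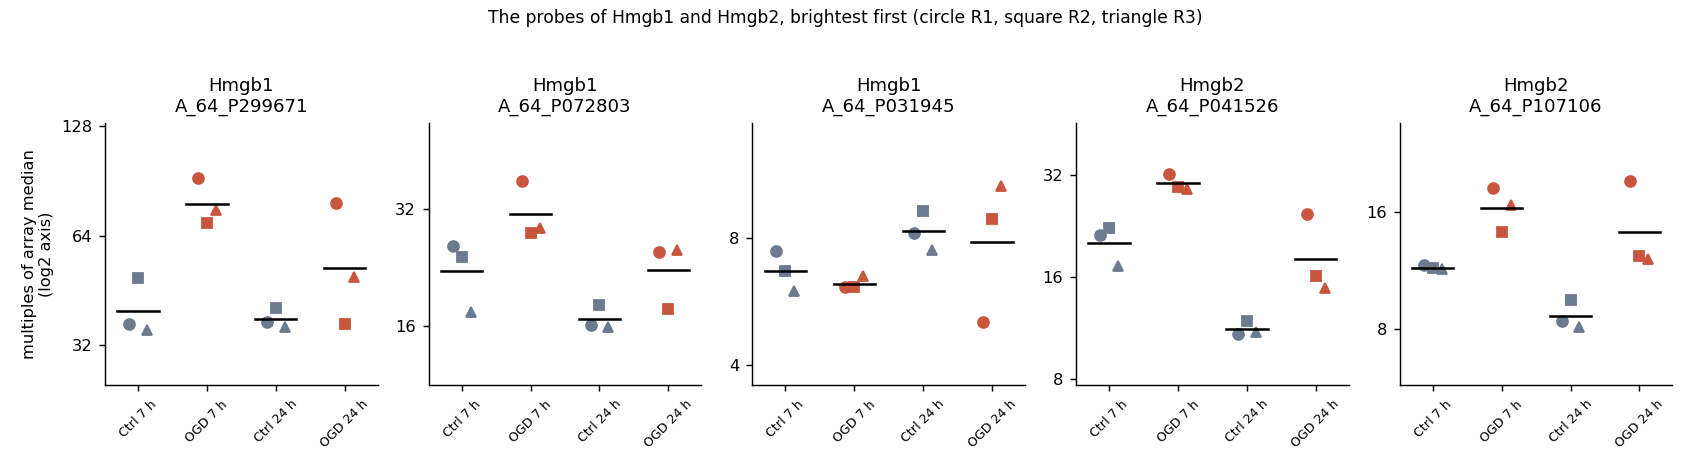
Signal of the 3 Hmgb1 probes and the 2 Hmgb2 probes on each of the 12 arrays, as multiples of the array median on a log2 axis with its own range in each panel (circle R1, square R2, triangle R3; line, geometric mean of 3 arrays). At 7 h the groups are apart on 2 of the 3 Hmgb1 probes and on both Hmgb2 probes, and the dimmest Hmgb1 probe runs from 5.98 to 7.45 in Ctrl and from 6.11 to 6.49 in OGD.

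Hmgb2, the chromatin protein closest to Hmgb1, was 1.5-fold higher in OGD at 7 h and 1.6-fold at 24 h on its brightest probe, A_64_P041526, under the fold threshold at both times. The signal was 21.3, 22.3 and 17.2 in Ctrl 7 h and 32.1, 29.4 and 29.0 in OGD 7 h, and 10.9, 11.9 and 11 in Ctrl 24 h and 24.5, 16.1 and 14.8 in OGD 24 h. The groups did not overlap at either time, and OGD was higher on 3 of 3 slides at each. The log2 fold changes were 0.58 ± 0.21 at 7 h (limma adjusted p = 0.333) and 0.68 ± 0.21 at 24 h (limma adjusted p = 0.281). With scaling to the spike-in probe they became −0.20 and −0.34, and with the normexp background correction 0.02 (limma adjusted p = 0.972) and 0.26 (limma adjusted p = 0.635).

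Unlike those of Hmgb1, the Hmgb2 probes ran together, with a Pearson r of 0.89 over the 12 arrays. The other probe, A_64_P107106, gave 0.51 ± 0.21 at 7 h (limma adjusted p = 0.383) and 0.72 ± 0.21 at 24 h (limma adjusted p = 0.269) on the log2 scale, again with no overlap of the groups. Both probes read lower in Ctrl at 24 h than in Ctrl at 7 h. The highest Ctrl 24 h values were 11.9 and 9.48, and the lowest Ctrl 7 h values 17.2 and 11.4, on arrays of different scan days.

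S100a8 and S100a9, the subunits of calprotectin, were near the background of the arrays. S100a8 was well above background on 1 Ctrl and 3 OGD arrays at 7 h and on 3 Ctrl and 2 OGD arrays at 24 h. Its signal was 0.072, 0.086 and 0.133 in Ctrl 7 h and 0.155, 0.142 and 0.155 in OGD 7 h, which did not overlap. The log2 fold change was 0.68 ± 0.35 at 7 h (limma adjusted p = 0.471) and 0.21 ± 0.35 at 24 h (limma adjusted p = 0.818), where the groups overlapped, and both were below 0 with scaling to the spike-in probe.

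S100a9 was well above background on 3 of 12 arrays. At 7 h no OGD array and 1 Ctrl array measured it, so no fold is given. At 24 h its signal was 0.017, 0.040 and 0.019 in Ctrl, on no array well above background, and 0.060, 0.053 and 0.064 in OGD, on 2 arrays well above it. Set against the lowest signal called well above background on the same Ctrl arrays, the OGD mean was 1.23-fold higher, a mean that includes a value not well above background. The log2 fold change of the signals as measured was 1.31 ± 0.71 (limma adjusted p = 0.43). Of 9 neutrophil and granulocyte markers with a probe, 2 were well above background on all 12 arrays, and Elane, Mmp8, Ltf and Itgb2 on none. The summed signal of those markers was 1.17 to 1.33 in Ctrl 7 h, 0.94 to 1.42 in OGD 7 h, 1.17 to 1.62 in Ctrl 24 h and 1.01 to 1.67 in OGD 24 h.

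Among the receptors, Tlr2 rose 3.52-fold at 7 h and did not pass at 24 h. Its signal was 0.714, 0.766 and 0.669 in Ctrl 7 h and 1.82, 3.97 and 2.21 in OGD 7 h. All 3 Ctrl cultures were close together and all 3 OGD cultures were above them. This gave a log2 fold change of 1.81 ± 0.47 (limma adjusted p = 0.26), with 1.35, 2.37 and 1.72 on the 3 slides. Tlr2 passed in each of the 12 fits that left out 1 array, with log2 fold changes from 1.49 to 2.05, and in all other alternatives but the scaling to the spike-in probe, where the log2 fold change was 1.04 (limma adjusted p = 0.804). Without OGD 24 h R1, which enters the 7 h contrast only through the shared estimate of the spread, the adjusted p at 7 h was 0.0404, and it was 0.175 to 0.804 in the others.

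At 24 h Tlr2 read 0.569, 0.660 and 0.720 in Ctrl and 0.234, 0.758 and 0.991 in OGD. The dim array OGD R1 lay below all Ctrl arrays, while OGD R2 and R3 lay above them. This gave a log2 fold change of −0.21 ± 0.47 (limma adjusted p = 0.882), and 0.42 without OGD R1. The log2 fold change at 24 h minus that at 7 h was −2.02 ± 0.66 (limma adjusted p = 1.00 over all probes), a contrast in which 2.10% of all probes passed both thresholds. Without OGD 24 h R1 that difference was −1.39 ± 0.40 (limma adjusted p = 0.521).

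Tlr4, the receptor for lipopolysaccharide, was near background, well above it on 4 of 12 arrays. It read 0.016, 0.030 and 0.084 in Ctrl 24 h and 0.024, 0.090 and 0.220 in OGD 24 h. OGD was higher on 3 of 3 slides, but the groups overlapped widely, and the log2 fold change was 1.2 ± 0.89 (limma adjusted p = 0.551). Without OGD 24 h R1 it was 2.05 (limma adjusted p = 0.436), which passed both thresholds. At 7 h 1 Ctrl array and no OGD array was well above background, and no fold is given.

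Ager, which encodes RAGE, was above background on all 12 arrays and did not pass at either time. It read 0.620, 0.518 and 0.596 in Ctrl 7 h and 0.472, 0.502 and 0.553 in OGD 7 h, with overlap. Its log2 fold change was −0.18 ± 0.17 at 7 h (limma adjusted p = 0.702) and −0.10 ± 0.17 at 24 h (limma adjusted p = 0.818).

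Myd88, the adaptor shared by most Toll-like receptors, was 1.47-fold higher in OGD at 7 h and 1.39-fold at 24 h, under the fold threshold at both times. The signal was 19.8, 17.05 and 17.9 in Ctrl 7 h and 36.9, 23.1 and 22.4 in OGD 7 h, and 10.2, 12.02 and 13.1 in Ctrl 24 h and 15.7, 16.5 and 16.6 in OGD 24 h. The groups did not overlap at either time, and OGD was higher on 3 of 3 slides at each. The log2 fold changes were 0.55 ± 0.21 (limma adjusted p = 0.354) and 0.47 ± 0.21 (limma adjusted p = 0.362). They were −0.22 and −0.55 with scaling to the spike-in probe, and −0.04 and 0.08 with the normexp background correction. At 7 h the value was 0.32 without OGD R1 and 0.30 with the scan session as a block.

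Nfkbia, the inhibitor that NF-kB itself induces, was 1.71-fold higher in OGD at 7 h and 1.47-fold at 24 h, again under the fold threshold. The signal was 17.8, 14.9 and 14.4 in Ctrl 7 h and 25.4, 22.0 and 34.1 in OGD 7 h, and 13.9, 19.2 and 16.6 in Ctrl 24 h and 28.3, 21.4 and 23.2 in OGD 24 h. The lowest OGD culture was above the highest Ctrl culture at both times. The log2 fold changes were 0.77 ± 0.22 (limma adjusted p = 0.27) and 0.56 ± 0.22 (limma adjusted p = 0.318), −0.004 and −0.47 with scaling to the spike-in probe, and 0.20 and 0.12 with the normexp background correction. With the scan session as a block, which at 7 h leaves OGD R3 as the only OGD culture scanned beside the Ctrl cultures, the 7 h value was 1.13 (limma adjusted p = 0.255) and passed.

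**Figure D3:**
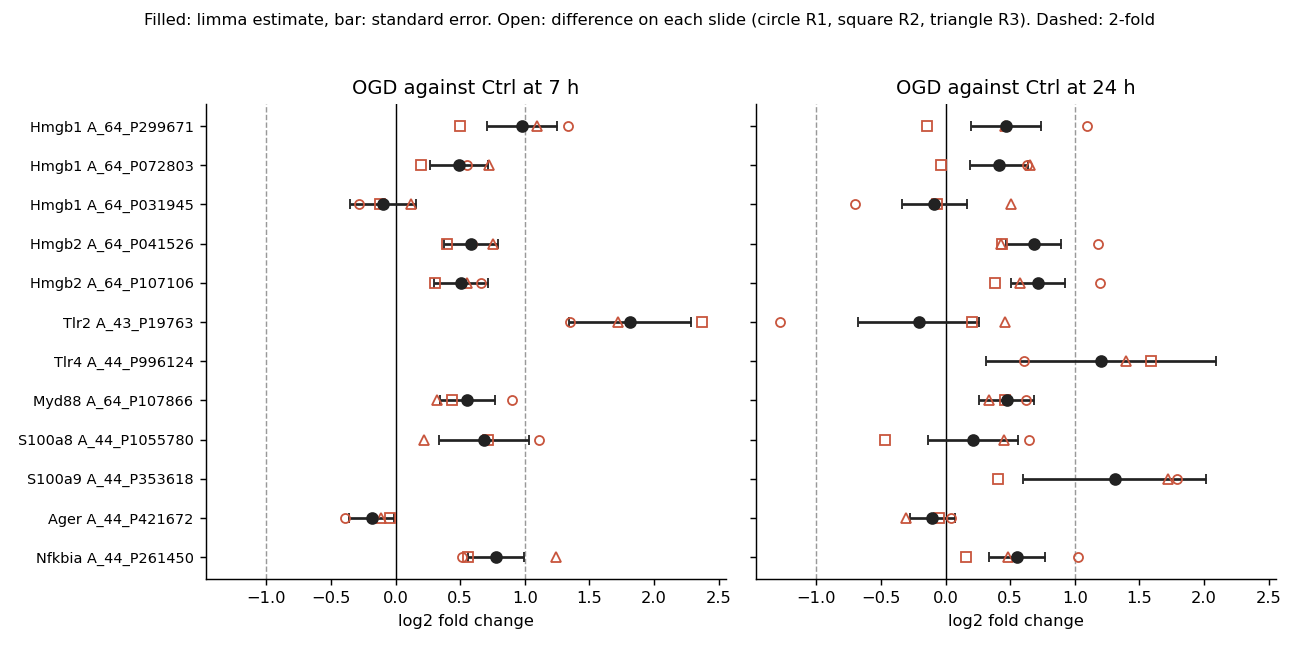
Log2 fold change of OGD against Ctrl at 7 h and at 24 h for the 12 probes (filled circles, limma estimate; bars, SE; open symbols, the difference on each slide; dashed lines, 2-fold). Tlr2 lies beyond 2-fold at 7 h on 3 of 3 slides, from 1.35 to 2.37, and spreads from −1.28 to 0.46 at 24 h. Tlr4 and S100a9 were near background, with wide bars at 24 h and no value drawn at 7 h.

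Lists of 93 other genes of the same route, none of them a member above, were read on their brightest probes, and 76 had a probe. Of these 76, 56 were well above background on all 12 arrays. At 7 h 6 of the 76 rose and 2 fell, where 2.08% and 1.66% of all probes did. At 24 h 16 rose and 2 fell, where 3.71% and 1.96% of all probes did. The lists were chosen with earlier results of these data known. The study's tables of its most changed genes, from these same arrays, include Cxcl1, Cxcl2, Cxcl10 and S100a6 as higher and Mmp9 as lower. The counts here and for each list below are therefore a description and no test of the lists. The median log2 fold change of the 76 was 0.25 at 7 h and 0.31 at 24 h, against −0.06 and 0.01 for all probes, and is below 0 at both times once scaled to the spike-in probe. Of these 26 calls, 6 remained with scaling to the spike-in probe, 13 with the normexp background correction, 13 with the methods' t-test and 22 with the scan session as a block. Both contrasts use the same fit but different arrays.

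Of the 16 other danger signals, 0 passed at 7 h in limma, 2 of them with an unadjusted p under 0.05. At 24 h, where 3.71% of all probes rose, 6 of the 16 did. These were the calcium-binding S100 proteins S100a6, S100a10, S100a11 and S100a4, the matrix proteoglycan biglycan (Bgn) and fibronectin (Fn1). S100a6 had the largest change among them, from 0.300, 1.06 and 1.60 in Ctrl 24 h to 10.7, 4.42 and 5.04 in OGD 24 h. The groups did not overlap, and the log2 fold change was 2.96 ± 0.62 (limma adjusted p = 0.252). S100a10, the partner of annexin A2, read 64.0, 96.3 and 74.6 in Ctrl 24 h and 399, 146 and 188 in OGD 24 h, a log2 fold change of 1.52 ± 0.34 (limma adjusted p = 0.252). OGD R1 was the highest array for both genes. Without it the log2 fold changes at 24 h were 2.56 for S100a6 and 1.1 for S100a10, and both still passed.

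The log2 fold changes at 24 h of S100a11, Fn1, S100a4 and Bgn were 2.60 ± 0.78, 1.47 ± 0.43, 1.21 ± 0.38 and 1.14 ± 0.37 (limma adjusted p from 0.269 to 0.29). S100a4 no longer passed without Ctrl 24 h R1 (0.69), nor did Bgn without Ctrl 24 h R1 or without OGD 24 h R1 (0.83). With the methods' t-test 3 of the 6 passed, and S100a11, S100a4 and Bgn did not. S100a4 and Bgn also lost the call with normexp, Bgn with the scan session as a block (0.83), and all 6 with scaling to the spike-in probe. The nucleosome-binding protein Hmgn1 and the mitochondrial chaperone Hspd1, the brightest of those that did not pass, gave 0.34 and 0.09 at 7 h and 0.39 and 0.13 at 24 h. In S100a6 the 7 h value was already 1.29 ± 0.62 (limma adjusted p = 0.446), and the difference between the times did not pass (1.67 ± 0.87, limma adjusted p = 1.00).

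Of the 18 other receptors and co-receptors, 15 had a probe, and 6 of these were well above background on all 12 arrays. Cd36, a scavenger receptor, fell at 7 h from 0.617, 0.4997 and 0.486 to 0.117, 0.469 and 0.264, a log2 fold change of −1.12 ± 0.47 (limma adjusted p = 0.393). It no longer passed in 5 of the 12 fits that left out 1 array, those without any of the Ctrl 7 h cultures, OGD 7 h R1 or OGD 7 h R3, where the log2 fold change ranged up to −0.60. Nor did it pass with the slide as a fixed block, with the scan session as a block (−1.01, limma adjusted p = 0.934), with each time fitted alone, with the methods' t-test, with normexp or with spike-in scaling. Tnfrsf1b, a receptor for TNF, rose at 24 h by 1.68 ± 0.61 on the log2 scale (limma adjusted p = 0.308), but the groups overlapped and it did not pass without Ctrl 24 h R1 or OGD 24 h R3, with the methods' t-test, with normexp or with spike-in scaling. Lbp, the binding protein for lipopolysaccharide, also passed at 24 h (limma adjusted p = 0.269), on 1 of 6 arrays well above background, so no fold is given. Tnfrsf1a, the other TNF receptor, gave −0.02 and 0.51 on the log2 scale at 7 h and 24 h, and Cd14, the co-receptor of Tlr4 and Tlr2, gave 0.47 and 0.36.

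None of the 17 adaptors and kinases with a probe passed at either time in limma or with the methods' t-test, and at an unadjusted p under 0.05 in limma there were 0 at 7 h and 1 at 24 h. The brightest of them, Tollip, an inhibitor of receptor signalling, gave −0.46 and −0.67 on the log2 scale at 7 h and 24 h, and Tab1, a partner of the kinase TAK1, gave −0.32 and −0.19. Rela and Nfkb2, the only other NF-kB subunits of the list with a probe, gave 0.08 and 0.50 at 7 h and 0.21 and 0.76 at 24 h. Of the 5 inhibitors with a probe, Bcl3, an IkB family member that acts in the nucleus, rose at 24 h by 2.42 ± 0.87 (limma adjusted p = 0.307), and Nfkbib and Nfkbie did not pass, at −0.13 and 0.20. Bcl3 did not pass without Ctrl 24 h R1 (1.4 at the lowest of the 12 fits) or OGD 24 h R3, with the methods' t-test or with spike-in scaling.

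The NF-kB target genes held 7 of the 8 changes of the lists at 7 h. Of 21 with a probe, 6 rose and 1 fell at 7 h, against 2.08% and 1.66% of all probes. At 24 h 7 of them rose and 2 fell, against 3.71% and 1.96%. As this list was chosen with earlier results of these data known, the counts are a description only. The median log2 fold change of the 21 was 1.24 at 7 h and 1.09 at 24 h. Of the 21, 13 were well above background on all 12 arrays. The 7 h median was the value of Il1b, which was well above background on 1 of 12 arrays. The 24 h median was the value of Lcn2, which did not pass. Both medians stay above 0 after the spike-in shift, but at 24 h only just, where that shift was 1.02. Cxcl1, a chemokine for neutrophils, rose at both times, from 8.12, 5.36 and 6.03 in Ctrl to 49.4, 33.6 and 87.3 in OGD at 7 h, and from 1.03, 2.14 and 1.86 to 51.9, 9.86 and 13.7 at 24 h. Every OGD culture was above every Ctrl culture. The log2 fold changes were 3.04 ± 0.58 (limma adjusted p = 0.175) and 3.58 ± 0.58 (limma adjusted p = 0.209), and Cxcl1 passed at both times under every alternative tried.

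The related chemokine Cxcl2 rose by 4.09 ± 1.16 at 7 h and by 3.10 ± 1.16 at 24 h on the log2 scale (limma adjusted p = 0.27 at 7 h and adjusted p = 0.312 at 24 h). A single culture weighed on each value. OGD 7 h R3 read 13.3 against 0.839 and 0.504 in the other OGD cultures, and OGD 24 h R1 read 2.38 against 0.330 and 0.200. With 1 array left out the log2 fold change ranged from 2.63 to 4.99 at 7 h, where it still passed each time, and from 2.03 to 3.82 at 24 h, where it did not pass without OGD R1 or Ctrl R1. The call was also lost with the methods' t-test at 7 h, and with normexp or spike-in scaling at 24 h. With the scan session as a block, where the 7 h value rests on OGD R3, it was 6.99 at 7 h and 2.03 at 24 h. Il6, a cytokine, was on no Ctrl 7 h array well above background and on 3 of 3 OGD 7 h arrays, and was at least 3.36-fold higher in OGD 7 h. The log2 fold change of the signals as measured was 2.82 ± 0.67 (limma adjusted p = 0.24), a call lost with spike-in scaling.

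Icam1, an adhesion molecule for leukocytes, rose at both times by 1.30 ± 0.43 and 1.54 ± 0.43 on the log2 scale (limma adjusted p = 0.314 at 7 h and adjusted p = 0.269 at 24 h), and the groups did not overlap. At 7 h it no longer passed without Ctrl R2 or without OGD R3 (0.86), with the methods' t-test, with normexp or with spike-in scaling, and with the scan session as a block it was 2.16. At 24 h it lost the call with spike-in scaling. The other 5 target genes that passed were named after their values were seen. Ccl20 passed at 7 h, Birc3 at both times and Cxcl10, Ccl2 and Cfb at 24 h, all of them higher in OGD, with log2 fold changes from 1.01 to 3.53, although Cfb was at −0.02 with scaling to the spike-in probe. Cxcl10, a chemokine for T cells, passed in each of the 12 fits that left out 1 array. Ccl2, a monocyte chemokine, did not pass without Ctrl 24 h R1, and Ccl20, Birc3 and Cfb each lost the call in 3 to 6 of these fits. The methods' t-test did not call Ccl20 and Birc3 at 7 h or Ccl2 at 24 h, and spike-in scaling kept none of these 5 genes but Ccl20. Birc3 and Cfb were also lost with normexp, and at 24 h with quantile normalization. For Ccl20, OGD 7 h R3 read 16.2 against 0.662 and 0.411 in the other OGD cultures, and without it the log2 fold change was 1.88.

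Mmp9, a matrix metalloproteinase, fell at 7 h, from 0.149, 0.179 and 0.211 to 0.025, 0.029 and 0.093. Only 1 of the OGD arrays was well above background, and the log2 fold change was −2.12 ± 0.53 (limma adjusted p = 0.254), with all OGD cultures below all Ctrl cultures. OGD R1 and R2, the lowest, were scanned apart from the Ctrl arrays, and with the scan session as a block the log2 fold change was −0.93 (limma adjusted p = 0.919) and did not pass, nor did it with normexp. At 24 h it was −1.19 ± 0.53 (limma adjusted p = 0.362) with overlap. It passed in 4 of the 12 fits that left out 1 array, and not with the methods' t-test, normexp, the 75th percentile or the scan session as a block (−0.76). Ptgs2, the inducible cyclooxygenase, gave 0.51 ± 0.25 at 7 h (limma adjusted p = 0.46) and fell at 24 h by 1.08 on the log2 scale (limma adjusted p = 0.252), from 0.692, 0.446 and 0.396 to 0.238, 0.202 and 0.271. The 24 h value did not pass without Ctrl 24 h R1 or OGD 24 h R2, with the 75th percentile, with normexp or with spike-in scaling. Vcam1 and Sod2, the brightest of the target genes that did not pass, gave 0.45 and 0.61 at 7 h and 0.26 and −0.04 at 24 h.

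**Figure D4:**
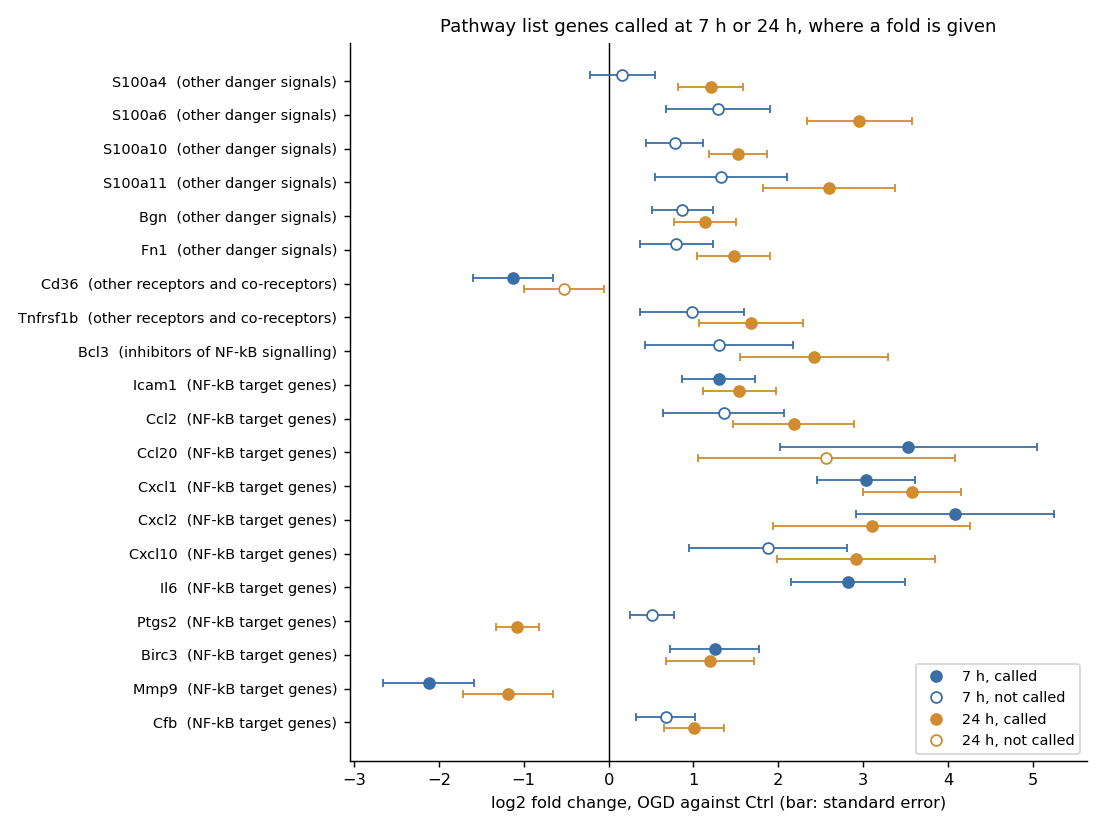
Log2 fold change of OGD against Ctrl at 7 h (blue) and 24 h (orange) for the genes of the pathway lists that passed at either time, with SE bars, filled where a gene passed at that time and open where it did not. Lbp, and Il6 at 24 h, are not drawn because no fold is given. Cxcl1, Cxcl2, Icam1, Birc3 and Mmp9 are filled at both times and the 6 danger signals at 24 h, and Mmp9, Cd36 and Ptgs2 lie on the negative side where filled.

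Markers of the cells that the cultures could hold were read beside these values. Of 15 microglia and macrophage markers, all with a probe, 9 were well above background on all 12 arrays. Cx3cr1, Aif1, Csf1r and Tmem119 were among these 9, while P2ry12 was well above background on 10 arrays, Itgam on 3 and Ptprc on none. At 7 h 1 of the 15 rose, the fractalkine receptor Cx3cr1, with a log2 fold change of 1.02, against 2.08% of all probes. At 24 h 1 of the 15 rose, the transcription factor Spi1, with 2.20 ± 0.94 (limma adjusted p = 0.345), against 3.71% of all probes. Spi1 was near background in Ctrl 24 h, at 0.040, 0.033 and 0.062, and well above it on 1 of these 3 arrays. The summed signal of the 15 markers was 49.3 to 70.0 in Ctrl 7 h and 61.1 to 74.95 in OGD 7 h, and 60.3 to 73.1 in Ctrl 24 h and 63.5 to 99.5 in OGD 24 h. For the astrocyte list, 0 of 9 passed at either time, with summed signals of 929 to 1059 in Ctrl 7 h and 1154 to 1471 in OGD 7 h, which did not overlap, and of 980 to 1169 and 921 to 1226 at 24 h. Slc1a3 was saturated on 3 of 3 Ctrl and 1 of 3 OGD arrays at 7 h and Aldoc on all of them, and summed over the 6 astrocyte markers saturated on no array the signals overlapped, at 295 to 328 in Ctrl 7 h and 291 to 387 in OGD 7 h. Of 12 neuron markers Slc17a7, the glutamate transporter of synaptic vesicles, fell at 7 h, and Slc17a7, Syt1, Gad1 and Gad2 fell at 24 h. Of all probes 1.66% fell at 7 h and 1.96% at 24 h. The summed signal of the 12 neuron markers at 24 h was 693 to 1003 in Ctrl and 321 to 712 in OGD, which overlapped. Stmn2 was saturated on 2 of 3 Ctrl and 1 of 3 OGD arrays there. Summed over the 11 markers saturated on no array, the signals were 405 to 638 and 149 to 435. The 4 genes that fell at 24 h (limma adjusted p from 0.267 to 0.332) were each lowest on the dim array OGD R1. Gad1 overlapped, at 164, 104 and 75.2 in Ctrl and 22.1, 57.7 and 93.4 in OGD. The part of these shifts in the values of Tlr2, Hmgb1 and the other genes was not tested.

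The genes whose signal ran most like that of Hmgb1 over the 12 arrays, among 10907 genes well above background on all arrays, were Pdap1, Smad1, Zmat2, Slc39a14 and Cd2ap, with Pearson r from 0.92 to 0.95 with the brightest Hmgb1 probe. Their log2 fold changes were 0.58 to 0.86 at 7 h and 0.22 to 0.54 at 24 h. Those most like Tlr2 were Lipogenin, Chsy1, Man1a2, the astrocyte glutamate transporter Slc1a3 and Rpl22l1, with r from 0.86 to 0.93, where Slc1a3 was saturated on some arrays. Their log2 fold changes were 0.32 to 0.81 at 7 h and −0.17 to 0.13 at 24 h. These are correlations over 12 arrays of 4 groups, given as a description.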

How the data were processed

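The 12 RNA samples were hybridized to Agilent rat arrays, and the authors read them with Feature Extraction 10.5.1.1. The deposited intensity values were background-subtracted by that software, with no scaling of arrays to each other. Log2 values were deposited too, centred on the median with BRB-ArrayTools, and matched log2 of the same intensities plus 1 constant per array, within 0.01. The probes were designed on rn4, of which no coordinate is printed.

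After removal of outlier spots, log2 signals were averaged over the spots of each probe and each array was centred on its median. Of 30367 probes, 18004 were named through the RefSeq accession (15154 symbols), and a gene with several probes was read on the one with the highest mean signal. Limma 3.58.1 (R 4.3.3) fitted 1 model of the 4 groups and gave two-sided p-values, with Benjamini-Hochberg adjusted p over all probes. The procedure was tested on simulated data. The mean spot signal was not used here, so the normexp alternative took the median spot signal. Precision is limited by the number of arrays. Where no array of a group was well above background, a fold is a bound against the lowest signal called well above background, or is not given. The p-values, log2 fold changes and figures use the signals as measured.

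The 10 genes, the lists and the tests were chosen with earlier results of these data known. Named are every member, per list up to 6 genes that passed (lowest p first) and up to 2 bright ones that did not, and the 5 genes most like Hmgb1 and Tlr2. Alternatives were another centring, quantile normalization, spike-in scaling (1 of 10 spike-in kinds, 32 spots, was usable), normexp (offset 50), dim probes left out (those well above background on fewer than 3 arrays), the authors' values, the methods' t-test, each time alone, the slide or scan session as a block, outlier spots kept, the other probes of a gene and each array left out.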

Additional observations from a re-analysis of the deposited data

Results flagged for a closer look

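The response of Tlr2 passed both thresholds in a test of the difference between the times, as did 2.10% of all probes. The log2 fold change of OGD against Ctrl at 24 h minus that at 7 h was −2.02 ± 0.66 (limma adjusted p = 1.00). The difference ranged from −2.43 to −1.39 with 1 array left out, and limma's unadjusted p stayed under 0.05 each time. It was −1.2 with the scan session as a block and −2.27 ± 1.58, with an unadjusted p over 0.05 in limma, with scaling to the spike-in probe.

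Ptgs2 passed the thresholds of the same test, with a difference of −1.59 ± 0.36 between 24 h and 7 h (limma adjusted p = 1.00). Its log2 fold change was 0.51 at 7 h and −1.08 at 24 h. After adjustment neither gene passed. With scaling to the spike-in probe the difference was −1.84 and with the normexp background correction it was −0.80, both with an unadjusted p over 0.05.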

How the results depend on the processing

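For the member genes with a fold, 175 values under other alternatives kept their direction and side of the thresholds, 19 changed sign, 7 came to pass and 1 no longer passed. With 1 array left out, 184 kept both, 3 changed sign and 5 came to pass. Scaling to the spike-in probe rests on 1 kind of probe, whose signal varied widely between arrays. It moved the median of all probes to −0.83 at 7 h and −1.01 at 24 h. It left 349, 542 and 29 probes past both thresholds at 7 h, at 24 h and in the difference between the times, against 1136, 1721 and 637, and 0 member genes and 5 genes of the pathway lists at 7 h and 2 genes of the lists at 24 h, against 1, 8 and 18. It turned the log2 fold change at 7 h of Hmgb2 to −0.20, Myd88 to −0.22, S100a8 to −0.10 and Nfkbia to −0.0041, and at 24 h of Hmgb1 to −0.56, Hmgb2 to −0.34, Myd88 to −0.55, S100a8 to −0.81 and Nfkbia to −0.47. With the normexp background the counts were 2918, 743 and 53 probes and 10 genes of the lists at 24 h. The sign then turned at 7 h for Myd88 (−0.041) and Ager (0.051) and at 24 h for Tlr2 (0.16) and Ager (0.036). Of the probes past both thresholds 55.55% were higher at 7 h and 65.4% at 24 h. These shares were 22.9% and 3.69% with spike-in scaling and 70.15% and 25.6% with normexp, and the share at 7 h was 67.0% with the 75th percentile. With the methods' t-test they were 47.0% and 85.0%, and at 24 h the share was 77.9% with each time alone and 79.9% with the scan session as a block. At 7 h fewer were higher than lower without Ctrl 7 h R1 (42.0%), without Ctrl 7 h R2 (46.0%) and without OGD 7 h R2 (49.8%), and at 24 h it ranged from 52.6% without OGD 24 h R3 to 77.4% without OGD 24 h R1.

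Centring on the 75th percentile and the authors' values each gave 2 member genes at 7 h, and the former turned Ager at 24 h to 0.0080. Quantile normalization turned S100a8 at 24 h to −0.10. The methods' t-test gave 634 probes at 24 h, 3 genes of the lists at 7 h and 10 at 24 h, and 1 member gene at 24 h, as did each time alone (1). The Hmgb1 probe A_64_P031945 taken for the gene gave −0.10 at 7 h and −0.087 at 24 h. The scan session as a block, added after seeing the data, rests at 7 h on OGD R3 and at 24 h on OGD R2 and R3. It gave 881 probes at 24 h, 2 member genes and 20 genes of the lists at 7 h and 1 member gene at 24 h, with Tlr2 at 0.42 and S100a8 at −0.16 at 24 h. The scan date equals the time point, so a block for it could not be fitted apart from time.

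With 1 array left out, the probes past both thresholds ranged from 664 (without OGD 7 h R1) to 1750 (without OGD 7 h R3) at 7 h, from 814 (without OGD 24 h R1) to 3045 (without OGD 24 h R3) at 24 h and from 476 to 960 in the difference. Member genes ranged from 1 to 2 at 7 h and from 0 to 1 at 24 h, and genes of the lists from 4 to 12 and from 8 to 20. The log2 fold changes that changed sign ranged from −0.62 to 0.42 for Tlr2, from −0.16 to 0.56 for S100a8 and from −0.19 to 0.023 for Ager at 24 h.

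The same-numbered Ctrl and OGD cultures shared a slide but did not deviate together, with correlations of −0.05, 0.111 and −0.012 for the 7 h cultures and of 0.084, 0.169 and −0.011 for those of 24 h, so the number was not taken as pairing. With the slide as a fixed replicate block 1158 probes passed at 7 h, 1590 at 24 h and 740 in the difference, and 1 member gene passed at 24 h, Tlr4 with 1.2 (limma adjusted p = 0.366). The random block had a correlation of 0.0176. The low signal of Tlr4, S100a8 and S100a9 limits what their values can show.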
